A study of Mus musculus with 12 samples.

Results

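A set of 100 genes of the postnatal mouse auditory nerve was lower at P7 and P10 than at both ends of the series, P0 and P21. The genes were chosen by that shape. For each gene with a single-symbol probe set, the probe set with the highest mean over the 12 arrays was kept, and the mean had to be over 6 on the log2 scale. The score was the smaller of the P0 mean and the P21 mean, minus the mean of the 4 P7 and P10 arrays, and the 100 highest scores were taken out of 13505 genes. A log2 difference of 1 is a doubling. All levels below are log2 RMA values (a background-corrected, quantile-normalized array signal), and they can be compared across arrays for one gene but not between genes.

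Auditory nerve was collected from untreated CBA/CaJ mice of both sexes at P0, P3, P7, P10, P14 and P21, with 2 arrays per stage and no genetic alteration given. What was analysed was the modiolus, the core of the cochlea with the spiral ganglion neurons, their fibres and glia, after dissection from bone and lateral wall and from most of the epithelium. The labels give both cochleas of 1 mouse as 1 sample, which the sex-linked genes below contradict for 7 of the 12 arrays. The samples are bulk tissue, in which fewer cells of a type and less RNA per cell cannot be told apart.

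Over these weeks the cochlea passes from an immature organ to one that hears, with hearing onset in mice in the second postnatal week. Spiral ganglion neurons carry the signal of the hair cells to the brainstem, and Schwann cells myelinate their fibres. The lateral wall holds the stria vascularis, whose marginal cells secrete potassium into the endolymph and whose intermediate cells are melanocytes. Epithelia of the cochlear duct line the endolymph space beside the nerve.

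Markers of neurons and glia were present on every array. Nefl, a neurofilament of spiral ganglion neurons, lay between 11.51 and 14.00, Sox10, a glial transcription factor, between 10.45 and 11.09, and Mbp, a myelin protein, between 11.87 and 14.45, all above the upper quartile of every array (at most 8.97), whereas Tubb3, a neuronal tubulin, lay between 8.47 and 9.86. Replicates correlated at 0.991 (P21) to 0.996 (P0) over all probe sets. On 7 of the 12 arrays both Xist, the RNA of the inactive X chromosome (8.12 to 13.09), and the mean of 3 Y-linked genes, Eif2s3y, Kdm5d and Uty (8.27 to 9.49), were high. In comparison, 2 arrays carried the Y-linked genes with Xist at 5.51 to 5.81 and 3 carried Xist with a Y-linked mean of 3.70 to 4.34. Female mice express Xist and carry no Y, and male mice the reverse, so these 7 arrays cannot each be 1 mouse of either sex. Whether mice were pooled or RNA was mixed is not known here, and so it is uncertain what a replicate, its SE and its p stand for. The 7 were both P0 arrays, P7 replicate 2, both P10 arrays, P14 replicate 1 and P21 replicate 1, by limits of 8 for Xist and 7 for the Y-linked mean that were set after the values were seen. The score cannot be computed without them, since they include all P0 and P10 arrays. The P21 arrays also stood apart in the balance of 3′ over 5′ control probe sets, at 2.03 to 2.32 for Actb and 1.37 to 1.65 for Gapdh, against 0.81 to 1.41 and 0.18 to 0.68 on the arrays of the other stages. The part of RNA quality in the P21 levels was not tested.

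Scores of the members lay between 0.61 and 1.61 with a median of 0.74, a 1.67-fold difference between the dip and the nearer end, and 20 members scored above 1. The median score of the 13505 genes was −0.21. In 85 of the 100 members the highest P7 or P10 array was below the lowest P0 or P21 array, a separation that 7.79% of the 13505 genes showed, which describes the choice and is no result. The minimum fell at P10 in 49 members, at P7 in 37, at P3 in 8 and at P14 in 6. The maximum was at P0 in 40, at P21 in 32, at P3 in 26 and at P14 in 2. P21 was above P0 in 41 members and below it in 58. At the edge of the rule, Dynlrb2 and Fzd9 scored 0.6075 inside it and Grik1 the same 0.6075 outside it, a tie broken by name, and Higd1b followed with 0.60.

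**Figure D1:**
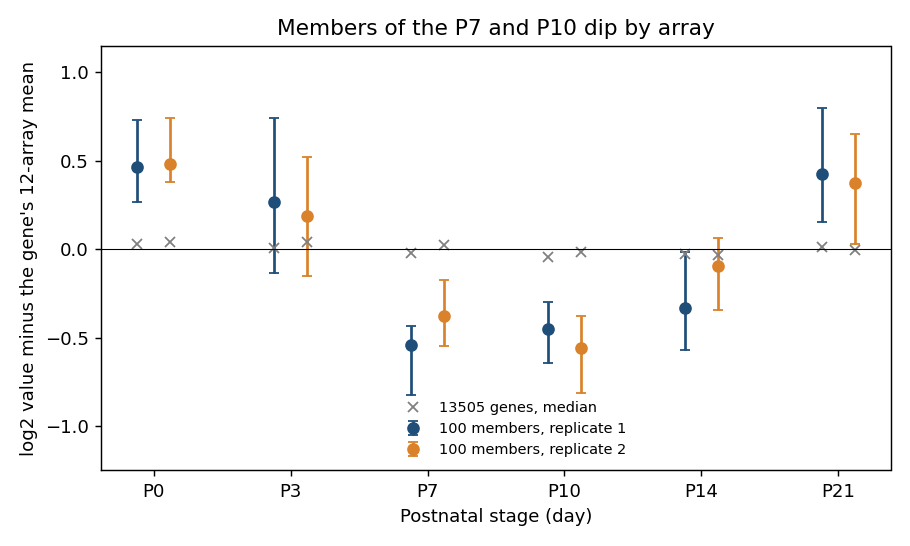
Median over the 100 members of the log2 value minus the gene's mean over the 12 arrays (y axis), by stage (x axis), with circles for the 2 replicates, bars for the interquartile range over members and crosses for the median of the 13505 genes. The members lie at 0.47 and 0.48 at P0, between −0.56 and −0.38 on the P7 and P10 arrays and at 0.42 and 0.38 at P21, with P3 (0.27 and 0.19) and P14 (−0.33 and −0.10) between.

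The levels at P3 and P14 place the fall and the return. The dip, P0 and P21 levels they are set against were selected by the rule, which favours a P3 or P14 level above the dip, so the counts that follow describe the shape and test nothing. P3 lay above the P7 and P10 mean in 91 members, against 53.6% of the 13505 genes, and P14 lay above it in 86 members, against 45.5% of the 13505 genes. The median excess over the dip was 0.30 at P14 and 0.81 at P3. P3 was nearer to the P0 level than to the dip in 68 members, whereas P14 was nearer to the P21 level in 25. The stages are unevenly spaced in days, P3 being closer to P0 than to P7 and P14 closer to P10 than to P21. These counts do not allow for that spacing. In 57 members P3 was still near P0 and P14 still near the dip. The mirror shape, with P3 near the dip and P14 near P21, was seen in 14 members. Both were near the ends in 11 and both near the dip in 18.

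**Figure D2:**
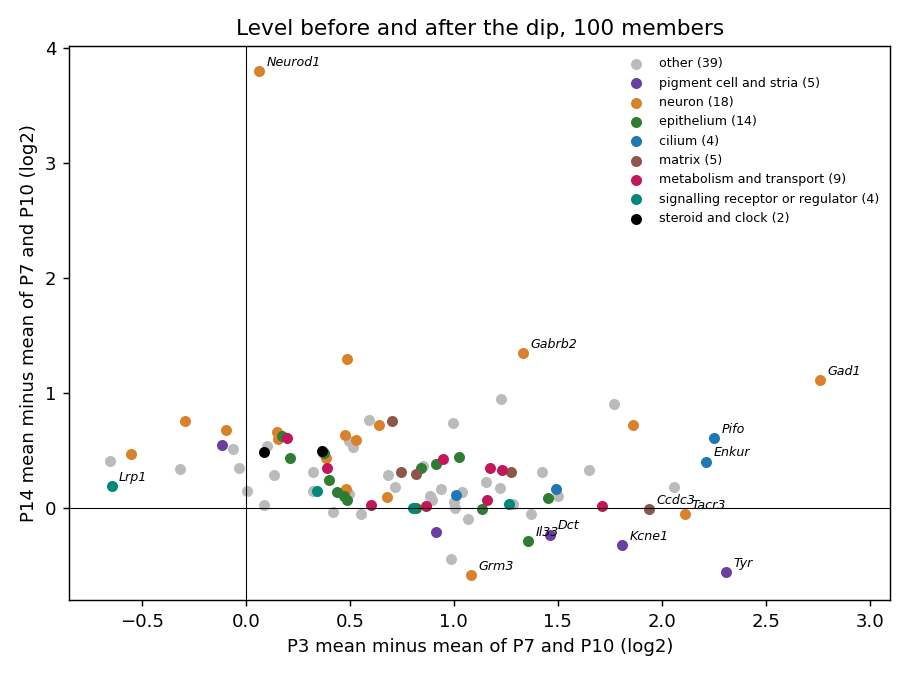
P14 mean (y axis) and P3 mean (x axis) of each of the 100 members, each minus the mean of the P7 and P10 arrays in log2 units, coloured by the role given to the gene. Most points lie right of 0 and close to 0 on the y axis, Tyr, Kcne1, Tacr3 and Pifo far to the right, Neurod1 alone at the top (3.80 above the dip at P14) and Lrp1 left of 0.

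The comparison whose arrays the score did not use is P14 against P3. It was made by limma over all 45037 probe sets, with 1 coefficient per stage, and a gene was called at a Benjamini-Hochberg adjusted p under 0.05 with a fold over 1.5. Of the 100 members, 8 were higher at P14 and 35 were lower. Of the 13505 genes, 16.5% were called higher and 15.7% lower. Replicates varied more in the members, with a median SD pooled over stages of 0.24, against 0.13 for the 13505 genes. The same difference is thus harder to call in them. The members' median P14 minus P3 was −0.50, against −0.07 for the 13505 genes. Both P14 arrays were below both P3 arrays in 59 members (42.6% of the 13505 genes) and above both in 19 (35.4%). Of the 35 members called lower, 19 were called in each of the 12 fits that left out 1 array, as were 5 of the 8 called higher. Without P14 replicate 1 the members called lower numbered 21, and without P3 replicate 1 those called higher numbered 5. A fit on the 5 arrays without the mixed Xist and Y-linked signal, an alternative chosen after seeing the data, had 1 array for P14 and 1 residual degree of freedom. So small a fit cannot test the members. All 43 called members kept their direction in it, but this was fixed in advance. In each of them both P14 arrays lay on the same side of both P3 arrays.

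**Figure D3:**
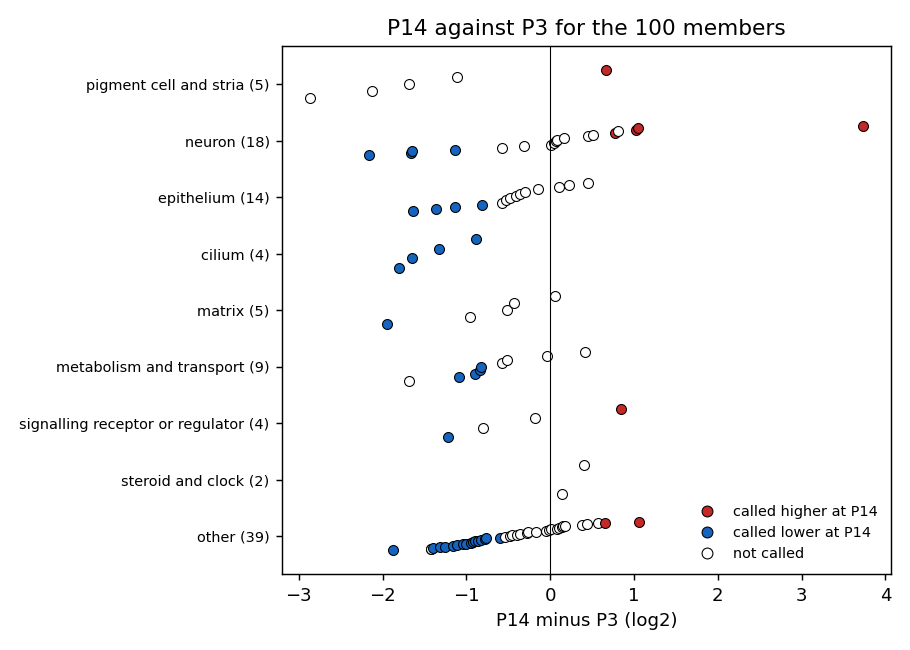
P14 minus P3 in log2 units (x axis) for each of the 100 members, in rows by role with the number of members in brackets, with filled circles for members called higher or lower by limma and open circles for those not called. The 4 cilium genes are all called lower, the neuron row holds 4 called lower and 4 called higher, and Neurod1 lies farthest right at 3.73. Of the 13505 genes, 15.7% were called lower and 16.5% higher.

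Roles were given to 61 of the members after their values had been seen, from what the genes are known to do, and serve to order the description. Of the pigment and strial genes, Kcne1, Tyr and Dct ranked 2, 3 and 6 by score, and Kcnq1 and Kit ranked 45 and 91. Kcne1 and Kcnq1 encode the subunits of the potassium channel of strial marginal cells, Tyr (tyrosinase) and Dct (dopachrome tautomerase) make melanin, and Kit is the receptor that melanocytes need to survive. Kcne1, with a score of 1.42, read 8.53 and 9.01 at P0, 9.72 and 6.17 at P3, 5.46 and 6.62 at P7, 7.07 and 5.39 at P10, 5.88 and 5.75 at P14 and 9.13 and 5.98 at P21. Tyr, with a score of 1.31, read 7.25 and 7.90 at P0, 10.42 and 6.31 at P3, 4.99 and 6.78 at P7, 7.22 and 5.23 at P10, 5.75 and 5.25 at P14 and 9.19 and 5.53 at P21. The values of Dct, with a score of 1.27, were 9.62 and 10.49 at P0, 11.48 and 7.76 at P3, 6.77 and 9.18 at P7, 10.16 and 6.52 at P10, 8.56 and 7.30 at P14 and 11.78 and 7.07 at P21. In all 3 genes P3 replicate 1 and P21 replicate 1 were far above their partners, by 3.15 to 4.71 log2 units, and the P7 and P10 arrays overlapped those of P21, so the P21 level rested on 1 of its 2 arrays.

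The same pair of arrays was high in 3 further members. Gsta2, a glutathione S-transferase, read 9.27 and 6.28 at P3 and 9.82 and 6.04 at P21. Tacr3, the neurokinin B receptor, read 9.87 and 8.29 at P3 and 9.06 and 6.90 at P21. Kcnq1 read 8.99 and 7.51 at P3 and 8.83 and 7.43 at P21. These 6 were the members whose replicates lay over 1 log2 unit apart at both P3 and P21. Over the 12 arrays, Pearson's r with Dct was 0.94 for Tyr, 0.92 for Kcne1, 0.92 for Gsta2, 0.87 for Kcnq1 and 0.77 for Tacr3, a description over arrays that include replicate pairs. With P21 replicate 1 left out of the score, Kcne1, Tyr, Dct and Gsta2 were no longer among the 100 highest scores, nor were Klhl14, Pcdh15 and Emx2.

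At P14, Tyr lay at 5.75 and 5.25, against 10.42 and 6.31 at P3, a difference of −2.86 ± 1.38 (SE) that did not pass the test (adjusted p = 0.148). It was −0.81 without P3 replicate 1, the high array, and −4.92 without P3 replicate 2 (adjusted p = 0.025), a fit in which the lone P3 array was assumed to vary like the other stages. For Kcne1 the difference was −2.13 ± 1.16 (adjusted p = 0.201), with −0.35 without P3 replicate 1 and −3.90 without P3 replicate 2 (adjusted p = 0.029). For Dct it was −1.69 ± 1.69 (adjusted p = 0.498). Dct turned to 0.17 without P3 replicate 1 and lay at −3.55 without P3 replicate 2. Kit differed from its group. Its Pearson's r with Dct over all arrays was 0.03, and it is also in the mast cell list. At P21 it read 9.91 and 10.46, without a high replicate 1. It read 9.99 and 9.68 at P14, against 9.04 and 9.31 at P3, and was called higher at P14 by 0.66 ± 0.18 (adjusted p = 0.021), a call that was lost without P14 replicate 1 (0.51) or P3 replicate 1 (0.53).

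The melanocyte list, chosen like all lists with earlier results of these data known, had 11 genes on the array, of which 2 were called higher (Mitf and Kit) and 3 lower (Pmel, Oca2 and Ednrb) at P14. The background over the 18193 genes with a single-symbol probe set was 13.0% higher and 12.8% lower. The mean of the list was 8.08 and 8.64 at P0, 9.41 and 7.66 at P3, 7.07 and 7.80 at P7, 7.83 and 7.13 at P10, 7.37 and 7.20 at P14 and 8.81 and 7.40 at P21. This mean was high on the same arrays as Tyr and Dct. Both genes are in the list, so the likeness is in part their own levels and tests nothing. The lateral wall and stria list did not share the dip. Its median score was −0.29, its lowest member Otos, a secreted protein of fibrocytes, scored −8.21, and 6 of its 15 genes were called higher and 2 lower at P14. The lateral wall had been dissected away, and the amount left in each sample was not measured.

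The start regions of Tyr and Dct are shown because both genes are targets of Mitf, the melanocyte transcription factor, which binds the motif CATGTG. The 250 bases before the RefSeq start (GRCm38.p6) are given 5′ to 3′ with each match to CATGTG, on either strand, in capitals. Tyr lies at chr7:87493513-87493762, minus strand, and Dct at chr14:118052247-118052496, minus strand.
Tyr: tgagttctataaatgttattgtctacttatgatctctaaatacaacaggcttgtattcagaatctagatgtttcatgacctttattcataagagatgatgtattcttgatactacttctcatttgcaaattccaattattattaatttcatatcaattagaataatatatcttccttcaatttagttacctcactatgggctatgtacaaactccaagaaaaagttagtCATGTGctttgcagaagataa
Dct: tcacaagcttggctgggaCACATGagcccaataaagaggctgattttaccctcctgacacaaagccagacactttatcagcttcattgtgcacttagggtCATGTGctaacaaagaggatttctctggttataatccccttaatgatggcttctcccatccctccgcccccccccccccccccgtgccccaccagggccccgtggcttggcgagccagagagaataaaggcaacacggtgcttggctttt
Tyr held 1 match, beginning 21 bases before the start, and Dct held 2. The motif was present in 12.3% of the 32851 start regions of this length, and in 13 of the 77 members that had an entry, against 13.8% of all genes with one. A match is a description of the letters only.

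The 4 genes of cilia had the same call at P14. Pifo takes part in the disassembly of primary cilia, Enkur is a protein of sperm flagella and motile cilia, Dynlrb2 is a dynein light chain, and Cfap54 belongs to the central apparatus of motile cilia. Pifo read 7.10 and 7.31 at P0, 7.69 and 7.66 at P3, 5.27 and 5.82 at P7, 5.36 and 5.24 at P10, 6.12 and 5.94 at P14 and 5.98 and 6.56 at P21. Enkur read 6.97 and 7.14 at P0, 7.42 and 7.50 at P3, 5.05 and 5.57 at P7, 5.34 and 5.03 at P10, 5.67 and 5.64 at P14 and 5.77 and 6.20 at P21. In both, P3 was the highest stage and the drop between P3 and P7 was over 2 log2 units, larger than any gap between replicates.

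All 4 cilium genes, a group formed after the values were seen, were called lower at P14, against 15.7% of the 13505 genes. Enkur differed by −1.80 ± 0.19 (SE; adjusted p = 0.000106), Pifo by −1.65 ± 0.21 (adjusted p = 0.000292), Dynlrb2 by −1.32 ± 0.17 (adjusted p = 0.000356) and Cfap54 by −0.89 ± 0.14 (adjusted p = 0.000967). Each of the calls held in every fit that left out 1 array. Cfap54 returned in full at P21 (8.18 and 7.89, against 7.79 and 8.01 at P0). Pifo was at 5.98 and 6.56 at P21, below its P0 arrays. In the ciliated cell list, 5 of the 7 genes with a mean over 6 scored above 0 with a median of 0.56, against −0.21 for the 13505 genes. Of the 13505 genes, 3372 scored above 0. The list includes the members Pifo and Dynlrb2, which were chosen by this score. The list's scores are therefore in part the choice itself and test nothing. Of the list's 14 genes on the array 4 were lower at P14 (Pifo, Dynlrb2, Tekt1 and Capsl) and 1 was higher (Ccdc39). Of the 18193 genes, 12.8% were lower and 13.0% higher. Foxj1, the master regulator of motile cilia, read 6.10 and 6.20 at P3 and lay between 5.81 and 7.11 on all arrays, and Dnah5, a motor of motile cilia, lay between 4.69 and 5.42.

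The start regions of 3 of these genes are shown because genes of cilia are known targets of RFX factors, which bind a repeat of GTTGCC and its reverse complement GGCAAC. The last 120 bases before the RefSeq start are given, with the matches to GTTGCC on either strand in capitals, for Pifo at chr3:106001498-106001617, minus strand, Enkur at chr2:21205366-21205485, minus strand, and Dynlrb2 at chr8:116504895-116505014, plus strand.
Pifo: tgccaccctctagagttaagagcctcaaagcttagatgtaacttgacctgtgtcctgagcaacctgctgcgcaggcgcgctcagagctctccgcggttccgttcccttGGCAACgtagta
Enkur: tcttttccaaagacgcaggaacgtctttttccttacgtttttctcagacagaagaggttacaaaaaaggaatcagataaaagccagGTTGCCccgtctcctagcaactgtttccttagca
Dynlrb2: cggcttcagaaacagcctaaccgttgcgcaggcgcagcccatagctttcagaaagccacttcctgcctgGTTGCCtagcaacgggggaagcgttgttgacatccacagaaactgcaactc
Each of the 3 genes held 1 match within 51 bases of a start. Pifo had 2 entries, and the other held none. Over all 32851 regions of 250 bases, 10.4% held the motif, and 11 of the 77 members with an entry did, against 11.8% of all genes with one.

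**Figure D4:**
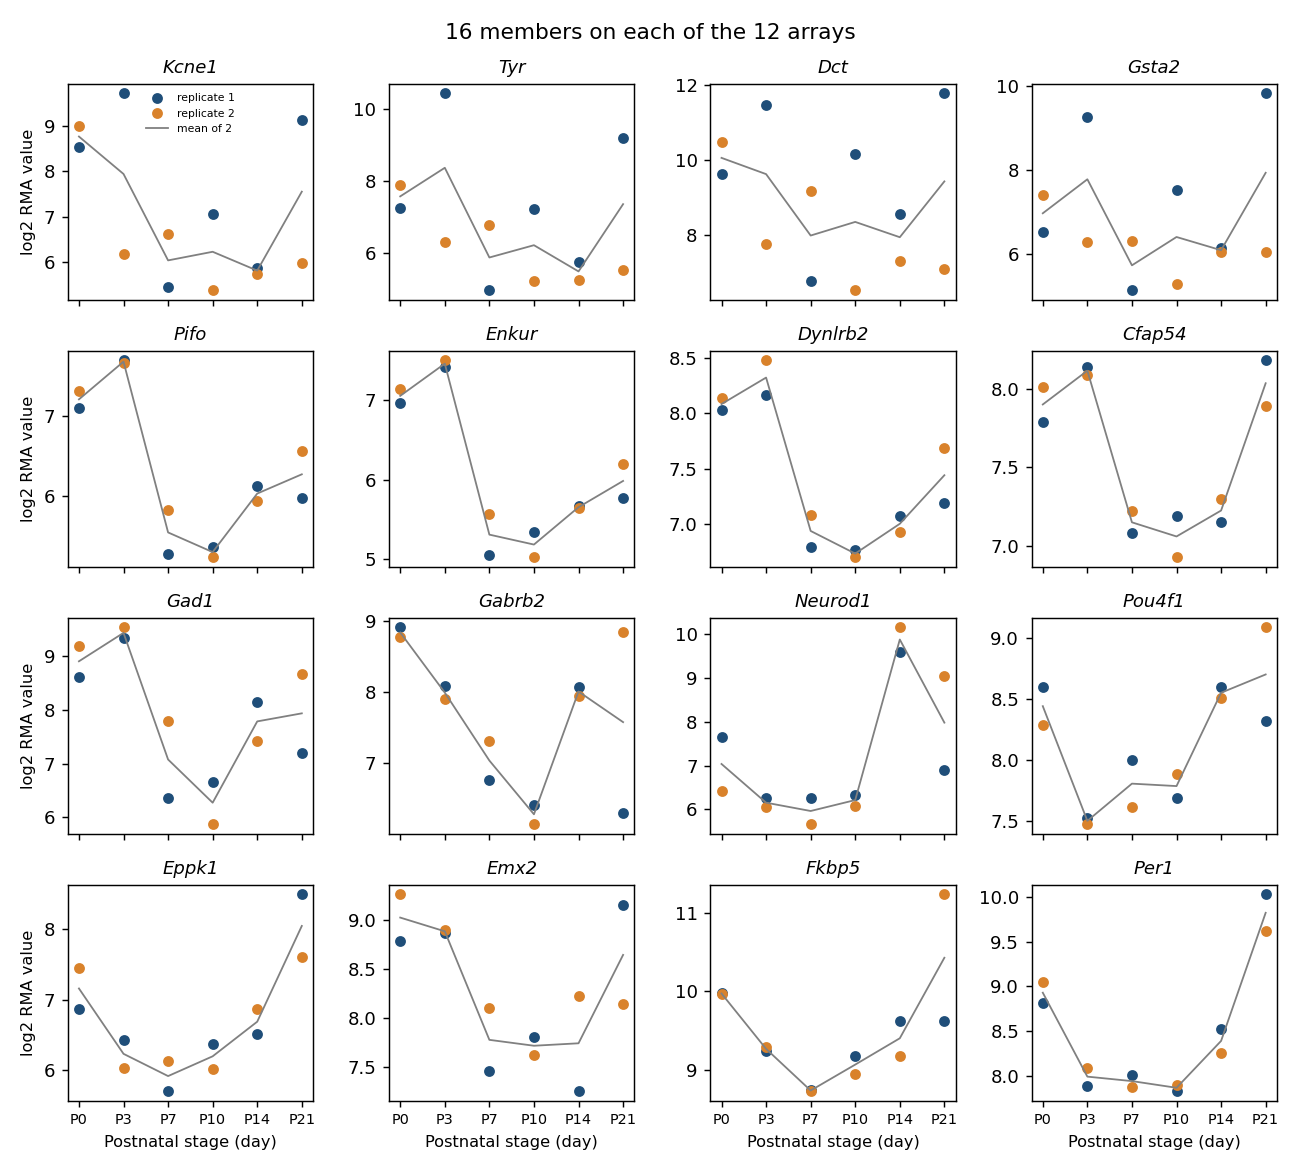
log2 RMA value (y axis) of 16 members on each array by postnatal stage (x axis), with circles for the 2 replicates and a line through the stage means. Kcne1, Tyr, Dct and Gsta2 split between replicates at P3 and P21, the 4 cilium genes drop between P3 and P7 in both replicates, and Gabrb2 and Neurod1 split at P21.

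The neuronal group of 18 held 4 called higher and 4 called lower at P14, against 16.5% and 15.7% of the 13505 genes, 10 in which P14 was nearer to P21 than to the dip, and 10 in which P3 was nearer to P0. Gad1, the enzyme that makes GABA, scored 1.26 and read 8.62 and 9.20 at P0, 9.34 and 9.54 at P3, 6.37 and 7.79 at P7, 6.67 and 5.88 at P10, 8.15 and 7.43 at P14 and 7.20 and 8.68 at P21. It was high through P3, and one of the P21 arrays was below one of the P7 arrays. At P14 it was lower by 1.65 ± 0.54 (adjusted p = 0.041), a call that was lost when any of the P0, P3 or P14 arrays was left out. Receptor subunits for GABA followed other courses. Gabrb2 read 8.91 and 8.77 at P0, 8.09 and 7.90 at P3, 6.76 and 7.32 at P7, 6.42 and 6.15 at P10, 8.07 and 7.95 at P14 and 6.31 and 8.85 at P21, with P14 minus P3 at 0.015 ± 0.593. Gabra2 read 6.51 and 6.63 at P14, against 5.52 and 6.07 at P3, and was higher at P14 by 0.78 ± 0.22 (adjusted p = 0.022). That call was lost without P3 replicate 1 or either P14 array.

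Neurod1, a basic helix-loop-helix factor of spiral ganglion and cerebellar granule neurons, had its peak at P14. It read 7.65 and 6.43 at P0, 6.26 and 6.05 at P3, 6.26 and 5.67 at P7, 6.34 and 6.09 at P10, 9.61 and 10.16 at P14 and 6.91 and 9.06 at P21. P14 was 13.3-fold above P3 (3.73 ± 0.59, adjusted p = 0.00104), the largest difference of any member. Gabra6, a GABA receptor subunit of cerebellar granule neurons that is no member, moved with it, at 8.50 and 9.23 at P14 and 6.92 and 9.92 at P21, against 4.43 to 5.24 on the other 8 arrays. The central neuron list averaged 7.81 and 7.71 at P14 and 7.31 and 8.10 at P21, against 6.85 to 7.16 on the other arrays. Neurod1 and Gabra6 are both in the list and rose by 3.73 and 3.94 from P3 to P14. The list's mean is thus in part their own levels and no separate measure, and its median P14 minus P3 was 0.165. At P14, 5 of the list's 15 genes, Neurod1 and Gabra6 among them, were higher and 2 lower, against 13.0% and 12.8% of the 18193 genes. Neurod6, Tbr1 and Gad2 of that list lay between 3.46 and 5.33 on all arrays. The part of central neurons in the Neurod1 level was not tested.

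Pou4f1, a transcription factor of sensory neurons including those of the spiral ganglion, had its low point at P3. It read 8.60 and 8.51 at P14, against 7.53 and 7.48 at P3, and was higher at P14 by 1.05 ± 0.23 (adjusted p = 0.00567). Psd2, an exchange factor for Arf6, was higher by 1.02 ± 0.23 (adjusted p = 0.0063), at 6.50 and 6.55 at P14 and 5.35 and 5.65 at P3. The spiral ganglion neuron list as a whole did not dip. Its median score was −0.48, and 10 of its 20 genes were higher and 4 lower at P14, against 13.0% and 12.8% of the 18193 genes.

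The other neuronal calls were lower at P14. Grm3, a metabotropic glutamate receptor, read 7.64 and 7.47 at P0, 7.39 and 7.97 at P3, 7.30 and 7.82 at P7, 5.70 and 5.57 at P10, 6.02 and 6.02 at P14 and 7.27 and 7.68 at P21, with its drop between P7 and P10 rather than before P7, and was lower at P14 by 1.66 ± 0.22 (adjusted p = 0.000363). Tacr3 was lower by 2.16 ± 0.64 (adjusted p = 0.027), a call lost without P3 replicate 1, without which the difference was −1.37, or without either P14 array. Its role was given from what the gene is known to do. Over all arrays its Pearson's r was 0.77 with Dct and 0.09 with Gabrb2, so its course was nearer to that of the pigment gene. Skor1, a transcriptional corepressor, was lower by 1.14 ± 0.29 (adjusted p = 0.0127), which was lost without P14 replicate 2 or P3 replicate 1. Cnr1, the cannabinoid receptor of the nervous system, read 9.92 and 10.39 at P14, against 10.66 and 10.81 at P3, a difference of −0.58 that passed on p (adjusted p = 0.035) and was just short of the 1.5-fold limit. The sodium channel Scn2a and the nicotinic receptor subunit Chrna7 did not pass, at 0.16 and 0.07.

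The epithelial group of 14 members dipped on every array: in all 14 the P7 and P10 arrays were below the P0 and P21 arrays, which the choice favoured. At P14, 4 of them were called lower and none higher, against 15.7% lower and 16.5% higher of the 13505 genes. At limma's unadjusted p under 0.05, 6 were lower and 0 higher, against 32.2% and 27.2% of the 13505 genes. By the methods' t-test without adjustment (fold over 1.5), 2 were lower and 0 higher, against 12.9% and 13.0%. Aqp5, a water channel of glands and of the outer sulcus, scored 1.21 and read 7.90 and 7.76 at P0, 8.74 and 7.13 at P3, 6.36 and 7.12 at P7, 6.23 and 6.22 at P10, 6.44 and 6.70 at P14 and 7.96 and 7.42 at P21. It was lower at P14 by 1.37 ± 0.43 (adjusted p = 0.035), and the call was lost in 7 of the 12 fits that left out 1 array, with −0.56 without P3 replicate 1, the high array. Il33, an alarmin of epithelial and stromal nuclei, read 8.53 and 8.26 at P14, against 10.04 and 10.03 at P3, and was lower by 1.64 ± 0.16 (adjusted p = 7.89e-05). Emx2, a homeobox gene of the cochlear epithelium, was lower by 1.14 ± 0.37 (adjusted p = 0.040), a call lost in 7 of those 12 fits, with −0.66 without P14 replicate 1 (7.26, with 8.23 on its partner). The scaffold protein Slc9a3r1 was lower by 0.82 ± 0.18 (adjusted p = 0.00584).

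Eppk1, an epithelial plakin with a score of 1.10, had a late maximum and read 6.87 and 7.45 at P0, 6.43 and 6.04 at P3, 5.71 and 6.13 at P7, 6.38 and 6.02 at P10, 6.51 and 6.87 at P14 and 8.49 and 7.60 at P21. Its P14 arrays were above its P3 arrays by 0.46 ± 0.30, which did not pass (adjusted p = 0.299). Pcdh15, a protein of hair cell tip links, read 9.43 and 9.42 at P0, 6.94 and 7.39 at P7, 7.34 and 7.43 at P10 and 8.86 and 7.70 at P21. Six4, a homeobox gene of sensory placodes, was 9.59 and 9.93 at P14, against 10.26 and 10.31 at P3, a difference of −0.52 short of the fold limit (adjusted p = 0.016). Otx2, Lrp2 (megalin), Grhl2, Tjp3, Scel, Camsap3 and Arhgef16 completed the group with scores of 0.62 to 0.76, and none of the 7 was called.

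Lists of neighbouring tissue gave context for these genes. In the hair cell list, 6 of 9 genes with a mean over 6 scored above 0 (median 0.25), against 3372 of the 13505 genes. The list includes the member Pcdh15, which was chosen by this score, so its scores are in part the choice itself. By limma, 5 of its 14 genes on the array were lower and 0 higher at P14, against 12.8% and 13.0% of the 18193 genes. At an unadjusted p under 0.05, 5 were lower and 0 higher, against 27.9% and 21.7% of the 18193 genes. The methods' t-test without adjustment gave 3 and 0, against 10.3% and 9.99%. The supporting cell and otic epithelium list had a median score of −0.16. By limma, 11 of its 21 genes were lower and 1 higher at P14, against the same 12.8% and 13.0% of the 18193 genes. Its mean level was 10.95 and 11.12 at P0, 10.98 and 10.94 at P3, 10.17 and 10.50 at P7, 9.83 and 10.04 at P10, 9.56 and 9.77 at P14 and 9.71 and 9.57 at P21, without a return. The amount of sensory epithelium in each sample was not measured, and its part in the dip was not tested.

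Gh, the growth hormone gene, scored 1.30 and read 10.15 and 8.82 at P0, 7.24 and 7.07 at P3, 7.23 and 7.63 at P7, 6.01 and 6.45 at P10, 6.83 and 7.46 at P14 and 7.47 and 8.79 at P21. P14 and P3 overlapped. Its 3 other probe sets gave scores of 2.22, 2.49 and 2.81, and the dimmest of them read 9.66 and 8.33 at P0, 4.15 and 4.86 at P10 and 7.33 and 9.29 at P21. P21 replicate 2 was above replicate 1 on all 4 probe sets. Of the other 8 pituitary genes on the array, Pomc lay between 7.45 and 8.32, and Prl, the prolactin gene, between 4.46 and 5.95 with its highest value on P21 replicate 2. Without P21 replicate 2, Gh, Gad1 and Gabrb2 were no longer among the 100 highest scores.

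Of the glucocorticoid-induced genes, Fkbp5, a chaperone of the steroid receptor, and Per1, a clock repressor that glucocorticoid also induces, were members. Fkbp5 read 9.98 and 9.96 at P0, 9.24 and 9.29 at P3, 8.74 and 8.73 at P7, 9.18 and 8.95 at P10, 9.62 and 9.18 at P14 and 9.62 and 11.23 at P21, and Per1 read 8.81 and 9.05 at P0, 7.89 and 8.09 at P3, 8.01 and 7.87 at P7, 7.83 and 7.90 at P10, 8.52 and 8.26 at P14 and 10.03 and 9.62 at P21. Both had their maximum at P21. At P14 Per1 was 8.52 and 8.26, above both P3 arrays by 0.40 ± 0.16, which did not pass (adjusted p = 0.082). The other genes of their lists ran a different course. The glucocorticoid list had a median score of −0.64. By limma, 9 of its 15 genes were higher and 0 lower at P14, against 13.0% and 12.8% of the 18193 genes. At an unadjusted p under 0.05, 11 were higher and 1 lower, against 21.7% and 27.9%. By the methods' t-test without adjustment, 7 were higher and 0 lower, against 9.99% and 10.3%. The circadian list had a median score of −0.59, with 8 of 18 genes higher and 1 lower by limma, against the same 13.0% and 12.8%. The mean of the glucocorticoid list was 9.27 at P0, 9.33 at P3, 9.88 at P7, 10.21 at P10, 10.36 at P14 and 10.69 at P21.

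Matrix genes were led by Fbln1, a secreted calcium-binding glycoprotein of basement membranes. Its score was 1.27, and it read 9.90 and 9.79 at P0, 9.23 and 9.41 at P3, 8.82 and 8.77 at P7, 8.35 and 8.35 at P10, 8.98 and 8.80 at P14 and 9.59 and 10.17 at P21. All 4 dip arrays were below every P0 and P21 array, and replicates lay within 0.6 of each other. The fibroblast list that holds it had a median score of −0.80. Ccdc3, a secreted protein, did not return by P14. It read 8.41 and 8.02 at P14, against 10.24 and 10.08 at P3, lower by 1.95 ± 0.16 (adjusted p = 2.89e-05), and at P21 it was only 8.90 and 8.83, against 10.02 and 10.39 at P0. Prelp, a leucine-rich proteoglycan, ended above its start by 1.44, the most of any member, at 9.45 and 9.68 at P21, against 8.08 and 8.16 at P0. Smoc1 differed by −0.52 ± 0.12 at P14 (adjusted p = 0.00983), under the fold limit, and Cytl1 by −0.96 ± 0.89 (adjusted p = 0.461), with 11.35 and 7.85 at P3.

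Genes of metabolism and transport had P3 nearer to P0 in 8 of 9 and P14 nearer to P21 in 1. Most members shared this order, with counts of 68 and 25 over all 100 members. Whether the group differed from the whole set was not tested. Elovl2, an elongase of polyunsaturated fatty acids, was lower at P14 by 0.90 ± 0.21 (adjusted p = 0.00905), at 6.91 and 6.91 at P14 and 7.76 and 7.85 at P3. Fut9, a fucosyltransferase, was lower by 0.83 ± 0.20 (adjusted p = 0.0105), a call lost without P14 replicate 1 or P3 replicate 1. Selenbp1 and Maob (monoamine oxidase B) were lower by 1.09 and 0.84, and the Maob call was lost without P14 replicate 1 or P3 replicate 1. Slc2a1, the glucose transporter of the blood-tissue barrier, read 12.08 and 11.98 at P0, 11.90 and 11.54 at P3, 11.28 and 11.17 at P7, 11.47 and 11.40 at P10, 11.61 and 11.75 at P14 and 12.24 and 12.71 at P21. Its 2 other probe sets over 6 scored 0.79 and 1.04, and the hypoxia and glycolysis list around it had a median score of −0.21.

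Signalling genes split. Fzd9, a Wnt receptor, was lower at P14 by 1.23 ± 0.17 (adjusted p = 0.00056). Lrp1, an endocytic receptor, was higher by 0.84 ± 0.16 (adjusted p = 0.00281), at 10.82 and 10.62 at P14, against 9.72 and 10.04 at P3, and its P3 level lay below its dip. The kinase Mast4, placed in no group, had the same early low as Lrp1. It was higher by 1.07 ± 0.21 (adjusted p = 0.00319), at 8.02 and 7.75 at P14, against 6.64 and 7.00 at P3. Zfhx2, also in no group, was higher by 0.66 ± 0.21 (adjusted p = 0.039), a call that was lost in 7 of the 12 fits that left out 1 array. For Lrp1, Mast4, Zfhx2, Psd2 and Pou4f1 the minimum was thus at P3, not in the dip itself. In all, 8 members had that order.

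Of the members placed in no group, Klhl14, a partner of torsin A, was the highest ranked with a gene name among those called. It read 8.87 and 9.03 at P0, 8.68 and 8.62 at P3, 6.53 and 7.38 at P7, 6.22 and 6.24 at P10, 6.65 and 6.91 at P14 and 8.31 and 7.05 at P21, and was lower at P14 by 1.87 ± 0.36 (adjusted p = 0.00295). Fmn1, a formin of actin filaments, was lower by 1.11 ± 0.18 (adjusted p = 0.00118), Slc44a3 by 1.42 ± 0.31 (adjusted p = 0.00586, lost without P14 replicate 1) and Cited4 by 1.40 ± 0.22 (adjusted p = 0.0011). Thsd7b, a thrombospondin-repeat protein with a score of 1.11, read 8.41 and 8.42 at P0, 7.85 and 7.59 at P3, 6.88 and 6.95 at P7, 6.29 and 6.77 at P10, 7.43 and 7.49 at P14 and 7.60 and 8.06 at P21, and did not pass at P14 against P3 (−0.26 ± 0.18, adjusted p = 0.320). The remaining members among the first 30, Spsb4, Mettl11b, Slc35f1, Dleu7, Ablim3 and Galm, scored 0.96 to 1.06, and Ablim3 alone of them was called (lower by 0.78 ± 0.17, adjusted p = 0.00571). Placeholder symbols made up 5 members, among them the highest score of 1.605, and were counted only.

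A second measure of the shape came from probe sets that the choice had not used. Of the members, 33 had 46 further probe sets with a mean over 6, and 37 of the 46 (80.4%) scored above 0, with a median of 0.44. Only 16 of the 46 scored above the fold limit, which all 100 members passed on the probe set that chose them. The 9 that scored below 0 belonged to Kcnq1ot1 (−0.44), Lrp1 (−0.31), Fut9 (−0.26), Cnr1 (−0.10), Wnk2 (−0.07), St8sia1 (−0.07), Mast4 (−0.02), Fbln1 (−0.02) and Thsd7b (−0.01). In the other eligible genes, 46 of 10141 further probe sets scored above the fold limit. Of the 10141, 20.2% scored above 0, with a median of −0.28. The members' further probe sets share the arrays and the RNA of the ones that chose the members, so they bear on the probe and not on the samples. Of the 100 members, 82 were in none of the 44 lists.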

How the data were processed

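Total RNA of 12 samples was hybridised to Affymetrix mouse 3′ expression arrays. The authors normalized the scans by RMA (MAS5 was also run) in Affymetrix Expression Console, with no version given, and deposited log2 RMA values, which were used without further normalization. Of 45101 probe sets, 64 controls were set aside. Of the 45037 tested, 34945 had 1 gene symbol in the platform annotation, 932 several and 9160 none. Members and lists were chosen with earlier results of these data known. The mean that picks a probe set includes P3 and P14 but has no direction.

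P14 was tested against P3 with limma 3.58.1 (R 4.3.3), a linear model of the 12 arrays with a mean per stage and moderated variances (residual df 6), with p-values adjusted by Benjamini-Hochberg across probe sets. The methods' t-test was an alternative, as were the settings named in the closing section. The fit was checked on simulated data. No batch is given in the sources used here. Arrays have no read depth, and 2 per stage limits the precision.

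Named were the 10 highest scores, ranks 11 to 30, members of a list, the 8 largest called folds each way and the edge of the rule. Placeholder symbols were not named. Cfap54, Cnr1, Scn2a, Chrna7, Slc9a3r1, Lrp2, Grhl2, Tjp3, Scel, Camsap3, Arhgef16, Skor1, Slc44a3, Cited4, Prelp, Smoc1, Selenbp1, Maob, Kcnq1ot1, Wnk2, St8sia1 and the non-members were named after their values were seen. Promoter sequences are from RefSeq (GRCm38.p6), and 77 members had an entry.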

Additional observations from a re-analysis of the deposited data

How the results depend on the processing

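The number of members called at P14 against P3 (8 higher, 35 lower) was within 1.5 times under every setting but the following. The methods' t-test with Benjamini-Hochberg adjustment called 0 members higher, 0 lower and 14 of all probe sets, against 9111 by limma, and unadjusted it called 6 higher, 24 lower and 6824. Leaving out the 7 arrays high in both Xist and Y-linked genes, a setting chosen after seeing the data, left 1 residual degree of freedom and called 0 higher, 0 lower and 0 of all probe sets (lowest adjusted p of a member 0.0707). Leaving out 1 array gave 5 to 9 members higher, 21 to 37 lower and 8240 to 9216 of all probe sets. The lowest counts came without P3 replicate 1 (5 higher) and without P14 replicate 1 (21 lower). Dct, at −1.69, turned to 0.17 without P3 replicate 1 and lay at −3.55 without P3 replicate 2. Same-numbered replicates did not pair, since their deviations correlated at −0.125 to 0.317 over the 15 pairs of stages, and the fit with a replicate block called 8 higher, 34 lower and 9157 in all.

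Which genes were members depended on the score. Taking the mean of the P0 and P21 means in place of the smaller kept 42 of the 100, and the mean over all probe sets of a gene kept 66. Leaving out 1 array kept 68 to 91, with 68 without P21 replicate 1 and 70 without P21 replicate 2. With 2 arrays per stage, splits such as that of Tyr at P3 and P21 cannot be resolved.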
